A study of Homo sapiens with 24 samples.

Results

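DNM2, PICALM and NUMB encode proteins of clathrin-mediated endocytosis, and their transcripts were examined here in 7 eCLIP peak lists from 293T cells, a human embryonic kidney cell line. The genes were chosen by window on hg19 and with RBFOX2 values of these data known, because DNM2 holds the locus with the most reproducible RBFOX2 regions. A peak counted for a gene when it shared at least 1 nt with the window on the gene's strand. The windows were chromosome 19, 10828700 to 10942600, plus strand (DNM2, 113.9 kb), chromosome 11, 85668200 to 85780900, minus strand (PICALM, 112.7 kb), and chromosome 14, 73741900 to 73925300, minus strand (NUMB, 183.4 kb). They held 195 of the 269336 peaks in all lists, of which 130 were in DNM2, 24 in PICALM and 41 in NUMB.

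Cells were irradiated on the plate at 254 nm, and lysates were treated with RNase I before immunoprecipitation. RNA was recovered from a membrane region reaching 75 kDa above the protein. The lists came from 2 libraries of an RBFOX2 antibody (40 U of RNase I), 4 of an SLBP antibody (replicates 1 and 2 at 40 U, replicates 3 and 4 at 5 U) and 1 of an isotype control IgG (40 U). Each had its own input library, and all were of unmodified 293T cells as far as the labels say. Of the 24 samples, the 7 inputs entered only through the deposited folds, and the 10 libraries of an RBFOX2 RNase series were not analysed here. The labels name no separate cultures, so the spread between replicates may be technical.

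RBFOX2 is an RNA-binding splicing regulator that recognises (U)GCAUG. Bound in an intron downstream of an exon it usually favours inclusion of that exon, and bound upstream it usually favours skipping. SLBP binds the stem-loop at the end of replication-dependent histone mRNAs and IgG has no RNA target, so both serve as comparison antibodies in these 3 genes. DNM2 encodes dynamin 2, the GTPase that cuts coated vesicles from the membrane. PICALM encodes a clathrin assembly protein that binds phosphoinositides. NUMB encodes an endocytic adaptor that restrains Notch signalling. Transcripts of all 3 genes are known to be alternatively spliced.

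In each list a peak has the authors' log2 fold of immunoprecipitation over input and their −log10 p-value. A peak was counted as enriched when its log2 fold was at least 3, which is 8-fold over input, and its −log10 p at least 5. The lists hold no read counts, so the depth behind a fold is unknown. The lists held 74902 and 97594 peaks for RBFOX2, 10122 to 23034 for SLBP and 28361 for IgG. Because RBFOX2 values of these lists were used to propose the genes, their RBFOX2 results are a description with no test.

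RBFOX2 gave a dense, strongly enriched cluster and sparser, lower ones in DNM2, a few enriched sites in NUMB, and sites in PICALM that passed in 1 library only. In DNM2, 28 of 41 peaks were enriched in RBFOX2 replicate 1 and 41 of 49 in replicate 2. In NUMB, 8 of 14 and 6 of 20 peaks were enriched in replicates 1 and 2. In PICALM, 2 of 4 peaks were enriched in replicate 1 and 0 of 6 in replicate 2. For comparison, 7.95% of all peaks of replicate 1 and 7.66% of all peaks of replicate 2 were enriched. Nothing is read from that contrast, since the same values led to the choice of genes. The means were 34.5 ± 9.2 enriched peaks in DNM2, 1.0 ± 1.4 in PICALM and 7.0 ± 1.4 in NUMB (SD, n = 2 each).

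No SLBP or IgG peak in the 3 genes was enriched. The SLBP libraries had 14, 8, 16 and 5 peaks there in replicates 1 to 4, with 0 enriched in each. In the whole SLBP lists, 1.23%, 1.27%, 1.70% and 2.33% of peaks were enriched. IgG had 18 peaks in the genes with 0 enriched, against 0.180% of its whole list. With shares this low in the lists, a count of 0 is near the background and is not a result about these genes. A count of 0 allows a share of up to 6.98% of the 43 SLBP peaks and up to 16.7% of the 18 IgG peaks, taken as 3 counts of the total and covering counting error only.

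**Figure D1:**
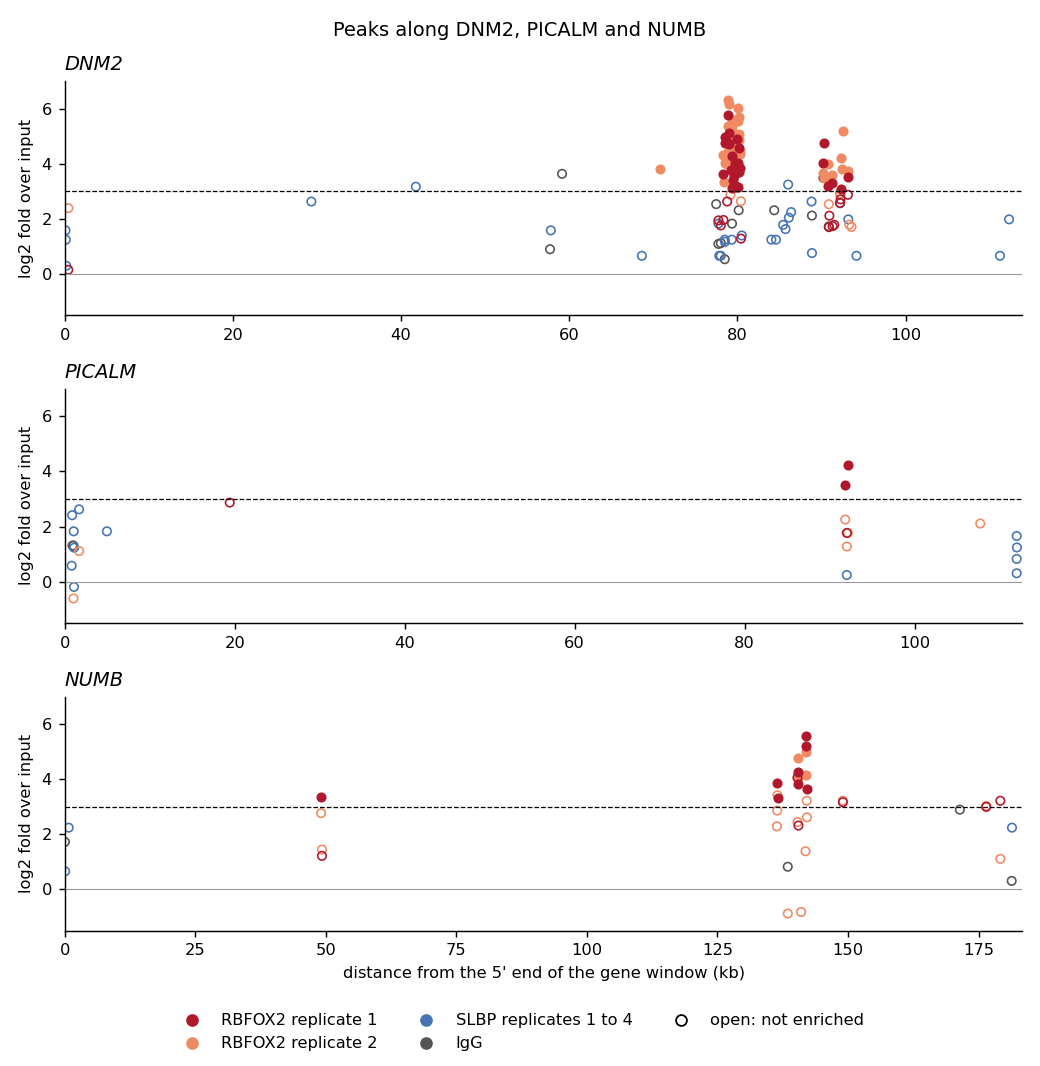
Authors' log2 fold over input of every peak (y axis) against distance from the 5' end of the gene window in kb (x axis), with 1 panel per gene. Filled points are enriched and open points are not; the dashed line marks a log2 fold of 3. RBFOX2 peaks of DNM2 gather at about 78 to 80 kb and 90 to 93 kb, and those of NUMB mainly in the last of 3 equal parts of its window.

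Most RBFOX2 peaks of each gene lay in the 3' part of its window. In the last of 3 equal parts of the DNM2 window there were 40 of 41 peaks in replicate 1 and 47 of 49 in replicate 2. In NUMB the same part held 12 of 14 and 18 of 20 peaks, and in PICALM 3 of 4 and 4 of 6. Other antibodies had many of their DNM2 peaks in that part too: 9 of 10, 4 of 5, 7 of 9 and 1 of 4 for SLBP replicates 1 to 4, and 10 of 12 for IgG. In PICALM the numbers were 1 of 4, 1 of 3, 3 of 4 and 0 of 1 for SLBP, and 0 of 2 for IgG. The NUMB part held 1 of 3 peaks of SLBP replicate 3 and 3 of 4 of IgG. No list had a peak on the opposite strand of any of the 3 windows.

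Nucleotides covered by enriched peaks of both RBFOX2 libraries were taken as reproducible regions, and regions within 1 kb of each other were joined into clusters. DNM2 had 18 such regions in 3 clusters, NUMB had 2 regions, each a cluster of its own, and PICALM had 0. The DNM2 regions covered 1055 nt, or 0.926% of the window, and spanned 15.0 kb from the start of the first to the end of the last. The NUMB regions covered 261 nt, or 0.142% of the window. In the genome as a whole 1585 such clusters were found, and 1142 of them held a single region.

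The first DNM2 cluster ran from 10906918 to 10909005 on chromosome 19, which is 78.2 to 80.3 kb into the window. Its 13 regions are the most of any cluster in the genome, and this count is what chose the gene; the next cluster had 12. By nucleotides in regions it ranked 6th, with 858 nt against 1210 nt at most. By the log2 fold of its best region in the weaker replicate it ranked 135th, at 5.78 against a median of 4.03 over all clusters. Its top rank by the number of regions was set by the choice of the gene, so nothing is read from its lower ranks by the other measures.

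Within that cluster RBFOX2 replicate 1 had 24 peaks, 22 of them enriched, and replicate 2 had 32, of which 31 were enriched. The median log2 fold was 3.87 in replicate 1 and 4.45 in replicate 2. The 13 regions were 17 to 139 nt wide and covered 41.1% of the cluster's 2088 nt. The 12 gaps between them were 11 to 332 nt long with a median of 56.5 nt. The regions enriched in both libraries were thus many short stretches, with more of the cluster outside them than inside. A gap need not lack signal, since the longest held peaks enriched in replicate 2 only.

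**Figure D2:**
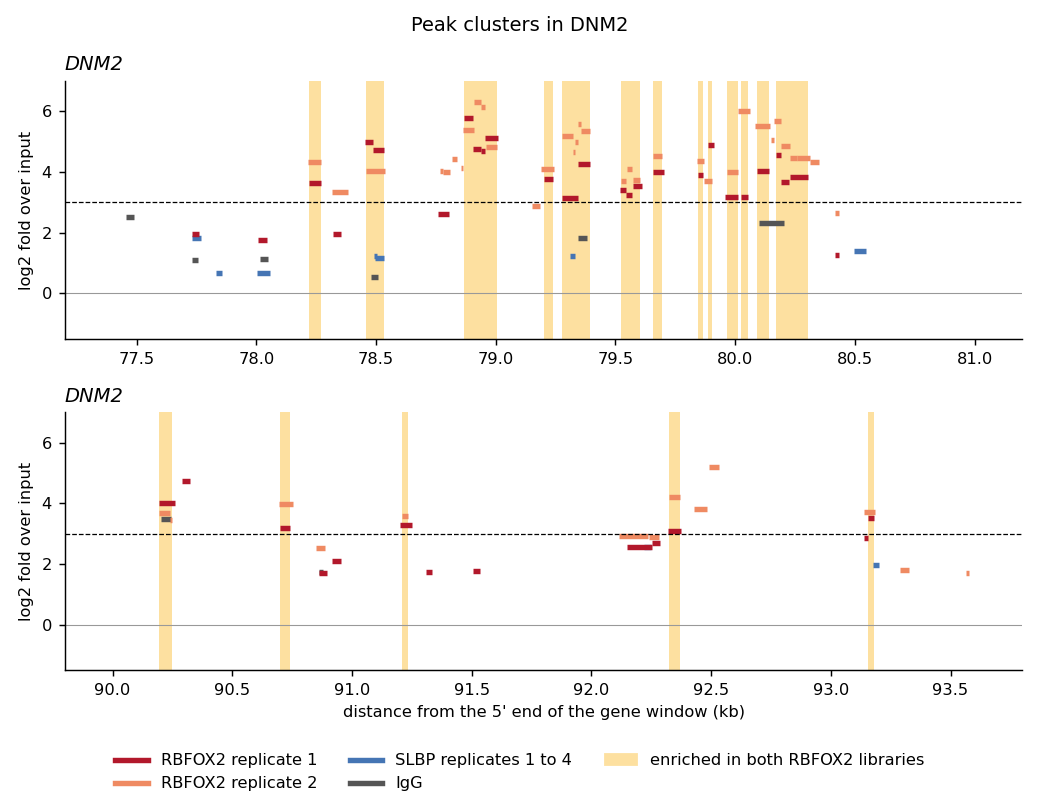
Peaks of the DNM2 clusters drawn as bars from their first to their last nucleotide (x axis, kb from the 5' end of the window) at their log2 fold over input (y axis), with regions enriched in both RBFOX2 libraries shaded. The upper panel shows the cluster with 13 regions and the lower panel the clusters with 3 and 2 regions. IgG and SLBP bars in the shaded regions lie below the enriched RBFOX2 bars there, except the IgG bar at 90.2 kb (3.48), which lies above 1 enriched RBFOX2 bar.

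Each region is described by the highest enriched peak touching it in each library. The region at 10907566 to 10907704 had the highest folds in both libraries, with log2 5.78 in replicate 1 and 6.31 in replicate 2. It was tiled by 4 touching enriched peaks in each library, and all of these peaks had the same deposited −log10 p of 15.66. That value is shared by 3571 RBFOX2 peaks of the lists, including 6 DNM2 peaks in replicate 1 and 9 in replicate 2, so peaks were not ranked by p. The region at 10907977 to 10908094 had log2 folds of 4.28 and 5.57, with deposited −log10 p up to 41.9 in replicate 1 and 70.0 in replicate 2. At the 3' end the region at 10908868 to 10909005 reached 4.56 and 5.68.

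Among paired DNM2 peaks the libraries differed most at 10908724 to 10908754. The log2 fold there was 3.17 in replicate 1, and 6.02 in replicate 2 for a peak at 10908711 to 10908763. The neighbouring peak at 10908658 to 10908712 also had 3.17 in replicate 1, and its partner at 10908664 to 10908710 had 4.01 in replicate 2. The opposite order was seen at 10908586 to 10908602, with 4.90 in replicate 1 and 3.72 in replicate 2. Some nucleotides passed in replicate 2 only, such as the 4 enriched peaks between 10907465 and 10907563. Replicate 1 had a single peak there, at 10907458 to 10907504, with a log2 fold of 2.63 and so under the fold limit.

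The next DNM2 cluster began 9.9 kb further along, at 10918893 to 10919934, and held 3 regions of 27 to 55 nt. These regions covered 11.8% of its span. By the log2 fold of its best region in the weaker replicate it ranked 992nd of the 1585 clusters, at 3.68 against a median of 4.03. Its first region, at 10918893 to 10918947, began at the same nucleotide in both libraries and reached 4.02 (log2) in replicate 1 and 3.68 in replicate 2. The other 2 regions had 3.19 and 3.30 in replicate 1, and 3.98 and 3.58 in replicate 2. The highest peak of the cluster in replicate 1, 4.75 at 10918987 to 10919023, had no peak beneath it in replicate 2.

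The third DNM2 cluster lay at 10921022 to 10921881, only 1.09 kb beyond the second, and held 2 regions. They covered 8.6% of its span, and by its best region in the weaker replicate (3.51) it ranked 1142nd. Log2 folds were 3.09 and 3.51 in replicate 1, and 4.203 and 3.73 in replicate 2. Replicate 2 also had 2 enriched peaks at 10921128 to 10921231, the higher with a log2 fold of 5.19, where replicate 1 had no peak. Just upstream, at 10920816 to 10920982 in replicate 2, a pair of touching peaks reached 2.92 and 2.89, with −log10 p of 26.1 and 7.67. Replicate 1 had a pair at nearly the same place with 2.58 and 2.71. These had strong p-values but missed the fold limit in both libraries.

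Just past the 3' end of the first DNM2 cluster, replicate 2 of RBFOX2 had an enriched peak at 10909012 to 10909049 (log2 4.34), where replicate 1 had no peak. A low peak followed in both libraries, at 10909118 to 10909133 in replicate 1 (log2 1.28) and 10909115 to 10909131 in replicate 2 (2.64). Further along, from 81.3 to 89.2 kb into the window, there were 0 RBFOX2 peaks in both libraries. The same stretch held 3, 4, 2 and 0 peaks in SLBP replicates 1 to 4, and 2 in IgG. None of those was enriched, although 1 peak of SLBP replicate 1, at 10914724 to 10914741, reached a log2 fold of 3.24 with a −log10 p of 1.53. A lone enriched RBFOX2 peak lay upstream of all clusters, at 10899523 to 10899557 in replicate 2 (log2 3.79), and replicate 1 had no peak there.

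IgG and SLBP had peaks inside the DNM2 clusters, with 0 of them enriched. IgG had 3 peaks in the first cluster with log2 folds of 0.53, 1.83 and 2.31. The last of these, at 10908797 to 10908903, spanned 107 nt and had a −log10 p of 3.98, the highest of any IgG peak in the 3 genes. In the second cluster an IgG peak at 10918902 to 10918943 had a log2 fold of 3.48 and a −log10 p of 3.39. RBFOX2 at the same place had enriched peaks of 4.02 in replicate 1 and of 3.68 and 3.47 in replicate 2, so the IgG fold was as high as the lowest of them. It also lay above the enriched replicate 1 peaks of that cluster at 3.19 and 3.30. SLBP had 3 peaks touching enriched RBFOX2 peaks in replicate 1 and 1 in replicate 4, with log2 folds up to 1.98, and 0 in replicates 2 and 3.

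Just upstream of the first DNM2 cluster, low peaks recurred in several lists. At 10906430 to 10906460 replicate 1 of RBFOX2 had a log2 fold of 1.94, SLBP replicate 1 had 1.83 nearly at the same start, and IgG had 1.09. At about 10906707 RBFOX2 replicate 1 had 1.76, SLBP replicate 3 had 0.66 and IgG 1.12. RBFOX2 replicate 2 had no peak at either. The first enriched region began further along, at 10906918.

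NUMB had its 2 reproducible regions 1.42 kb apart, at 140.4 to 142.0 kb into the window. The first, at 73784813 to 73784932 on chromosome 14, had log2 folds of 4.25 in replicate 1 and 4.77 in replicate 2. The other, at 73783257 to 73783397, had 5.56 and 4.98 and was the highest site of the gene in both libraries. By the value in the weaker replicate, the region at 73783257 ranked 286th of the 1585 clusters and the one at 73784813 ranked 622nd. No SLBP or IgG peak touched either region.

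Both NUMB regions lay in longer groups of peaks, some of which missed a limit. Around the first, replicate 1 had 4 peaks and replicate 2 had 5 between 73784777 and 73785021. A replicate 1 peak at 73784966 to 73785021 had a log2 fold of 4.06 but a −log10 p of 4.90, just under the limit of 5. Around the second, the peak at 73783185 to 73783260 passed in replicate 1 (log2 3.66, −log10 p 6.94). Its partner in replicate 2 missed, with log2 3.22 and −log10 p 4.85. Both groups thus held a peak very near the p-value limit.

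Other NUMB sites passed in replicate 1 only, and each had a peak in replicate 2. At 73788773 to 73788920 replicate 1 had 2 enriched peaks with log2 folds of 3.87 and 3.32. Replicate 2 had 3 peaks there at 2.29, 2.86 and 3.42, with −log10 p of at most 2.93. At 73876173 to 73876242, far upstream at 49.1 kb into the window, replicate 1 had 3.37 and replicate 2 had 2.77. Those 2 peaks end at the same nucleotide on the chromosome, 73876242, which is their 5' edge on this strand.

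Nearer the 3' end, another 3 NUMB places had RBFOX2 peaks in both libraries without passing in either. At 73776269 to 73776303 the log2 folds were 3.17 and 3.22 in replicates 1 and 2, with −log10 p of 2.15 and 2.37. At 73748826 to 73748861 they were 2.998, just under the fold limit, and 3.03. At 73746120 to 73746162 they were 3.22 and 1.11. In all, 3 NUMB peaks of replicate 1 and 4 of replicate 2 reached the fold limit and missed the p-value limit. In DNM2 that number was 0 in both libraries.

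PICALM had 1 group of RBFOX2 peaks seen in both libraries, at 85688722 to 85689072 on chromosome 11, which is 91.8 to 92.2 kb into the window. Each library had 3 peaks there, and each peak of replicate 1 had a partner in replicate 2. In 5' to 3' order the log2 folds were 3.50, 1.77 and 4.22 in replicate 1, and 2.26, 1.28 and 1.77 in replicate 2. The first and last of replicate 1 were enriched, with −log10 p of 5.97 and 5.45. All 3 of replicate 2 had a −log10 p below 1, the highest at 0.984. The position repeated between libraries while the size did not, and without replicate 1 PICALM had 0 enriched peaks.

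**Figure D3:**
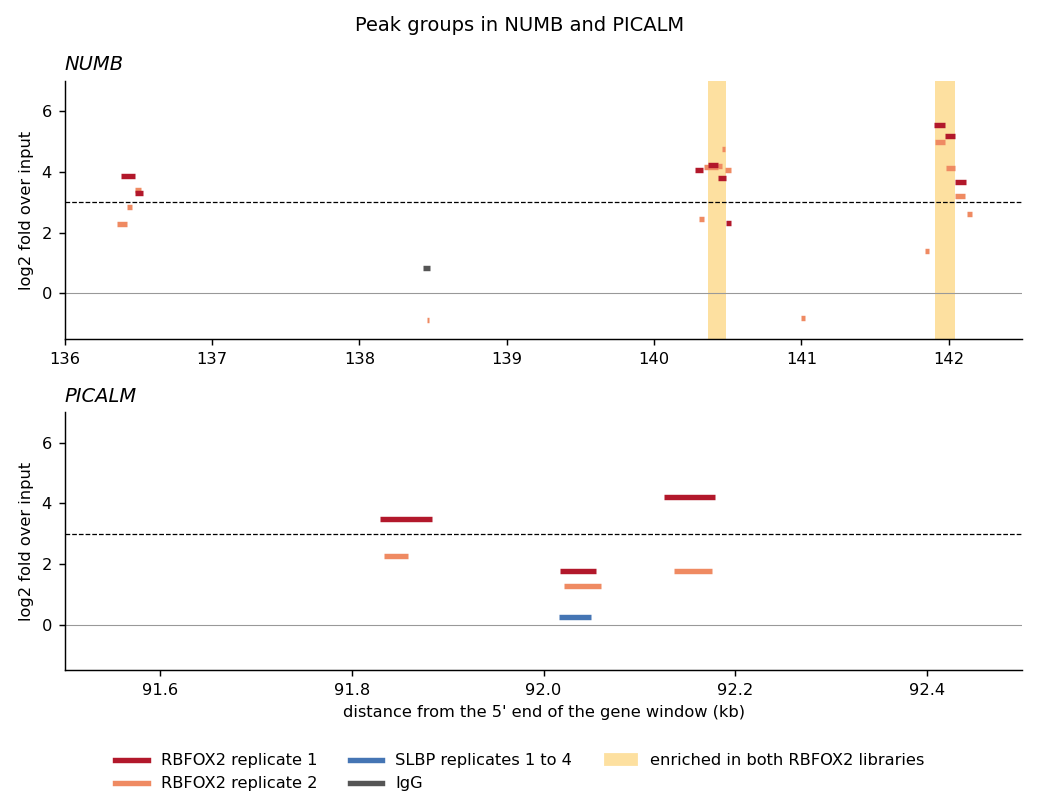
Peak groups of NUMB (upper panel) and PICALM (lower panel) by distance from the 5' end of each window in kb, drawn as bars at their log2 fold over input, with regions enriched in both RBFOX2 libraries shaded. NUMB has 2 shaded regions. In PICALM each replicate 1 bar has a replicate 2 bar below it, and no region is shaded.

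The only other list with a peak in that PICALM group was SLBP replicate 3, with a log2 fold of 0.24 at the middle peak. Elsewhere the RBFOX2 peaks of PICALM were scattered and not shared between the RBFOX2 libraries. Replicate 1 had one at 85761473 to 85761489 (log2 2.87) and replicate 2 had 3 others between log2 −0.61 and 2.11. None of these was enriched.

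At the 5' ends of the genes, peaks were low and spread over antibodies. Within 2 kb of the 5' edge of the PICALM window lay 2 of 6 peaks of RBFOX2 replicate 2 and 0 of 4 of replicate 1. Of the PICALM peaks of SLBP replicates 1 to 4, 2 of 4, 2 of 3, 1 of 4 and 1 of 1 lay there. For IgG it was 2 of 2. The log2 folds of all these peaks ran from −0.61 to 2.63, and 0 were enriched. DNM2 had 1 peak in each RBFOX2 library at about 0.4 kb, at log2 0.15 in replicate 1 and 2.39 in replicate 2. SLBP replicates 1, 3 and 4 had 1 DNM2 peak each in that zone and IgG had 0. In NUMB only SLBP replicate 3 (2 peaks) and IgG (1 peak) had any.

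Median log2 folds over all peaks of a gene are a description only, since RBFOX2 values of these lists led to the choice of genes. They were higher for RBFOX2 than for the comparison antibodies in DNM2 and NUMB, while PICALM depended on the library. In DNM2 the median log2 fold was 3.42 and 4.11 in RBFOX2 replicates 1 and 2, a mean of 3.77 ± 0.49 (SD, n = 2). It was 1.54, 2.04, 0.66 and 1.58 in SLBP replicates 1 to 4 (mean 1.45 ± 0.58, SD, n = 4) and 1.97 in IgG. In PICALM it was 3.19 and 1.52 for RBFOX2, 1.83, 1.24, 0.74 and 0.58 for SLBP, and 1.31 for IgG. RBFOX2 replicate 2 therefore lay within the SLBP range there. In NUMB it was 3.51 and 2.95 for RBFOX2, 2.24 for SLBP replicate 3 (3 peaks, none in the other SLBP lists) and 1.28 for IgG (4 peaks).

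The scalings of folds in different lists are not known to match, so these medians were not tested against each other. Over the whole lists the median log2 fold was 0.73 and 0.86 for RBFOX2, 1.57, 1.46, 0.66 and 1.17 for SLBP, and 1.31 for IgG. The list-wide order was thus different from that in DNM2, with RBFOX2 not at the top. Nothing is read from that contrast, since RBFOX2 values led to the choice of DNM2. The medians of SLBP replicate 3 in DNM2 (0.66) and of IgG in PICALM (1.31) were the same as those of their whole lists to the printed digits.

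**Figure D4:**
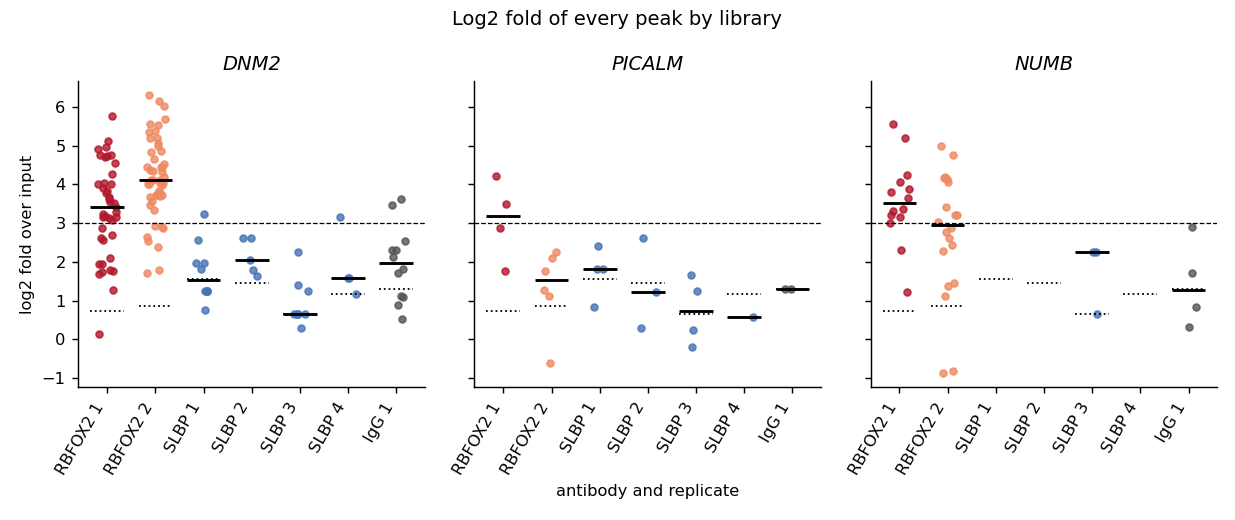
Log2 fold over input of every peak (points, y axis) for each library (x axis, antibody and replicate number), with 1 panel per gene. Solid lines are the medians of the gene's peaks, dotted lines the medians of the whole lists, and the dashed line the fold limit of 3. The DNM2 medians of 3.42 and 4.11 for RBFOX2 lie above all others in that panel. DNM2 was chosen with these RBFOX2 values known, so this is a description only.

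Some folds recurred among the SLBP peaks of these genes. Of the 16 peaks of SLBP replicate 3, 6 had a log2 fold of 0.66, a value shared by 12.3% of its list. In SLBP replicate 1, 4 of 14 peaks had 1.24, a value of 13.0% of that list. Those 2 libraries had 8 distinct values each, SLBP replicates 2 and 4 had 6 among 8 peaks and 4 among 5, and IgG had 15 among 18. The RBFOX2 libraries had 56 distinct values among 59 peaks and 71 among 75. Read counts are not given, so single low folds of SLBP and IgG carry no known precision.

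Few peaks of the 3 genes lay below input. In RBFOX2 replicate 1 the number was 0 of 59, where 32.6% of the whole list had a log2 fold below 0. In replicate 2 it was 3 of 75, where the list had 31.0%. Of the 3, 2 were in NUMB (−0.87 and −0.81) and 1 was in PICALM (−0.61). SLBP replicate 3 had 1 such peak and the other SLBP libraries 0, against 7.02%, 9.45%, 23.4% and 17.0% of the lists of replicates 1 to 4. IgG had 0 against 10.7%. The SLBP and IgG counts rest on 5 to 18 peaks per list, too few to read against these shares. The RBFOX2 shares come from the contrast that chose the genes, and they are given as a description.

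Most RBFOX2 peaks of replicate 1 in these genes had a partner in replicate 2. Replicate 1 peaks were paired with replicate 2 when their midpoint fell in a replicate 2 peak. That held for 35 of 41 peaks in DNM2, 3 of 4 in PICALM and 14 of 14 in NUMB, and for 56.2% of the whole list. DNM2 was chosen for its regions enriched in both libraries, so nothing is read from that contrast. Across the 35 DNM2 pairs the log2 folds had a Pearson's r of 0.68 and a Spearman's rho of 0.62. Across the 14 NUMB pairs they were 0.60 and 0.50. Peaks of a gene share transcript, library and input, and touching pieces share a site, so these values describe the lists only. Over all 42129 pairs in the genome r was 0.84 and rho 0.82, a set that also spans the many peaks below input. Over the 15607 pairs with a mean log2 fold of at least 2, r was 0.58 and rho 0.42.

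The direction of the difference between replicates was not the same in the 3 genes. In DNM2 replicate 1 was lower in 29 of 35 pairs, with a median difference (replicate 1 minus replicate 2) of −0.79 on the log2 scale. In PICALM replicate 1 was higher in 3 of 3 pairs, with a median of 1.24. In NUMB it was higher in 8 of 14, with a median of 0.26. The median over all pairs in the genome was 0.11, and −0.06 over the pairs with a mean log2 fold of at least 2. Whether the genes differ in this was not tested, and each replicate had an input of its own.

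**Figure D5:**
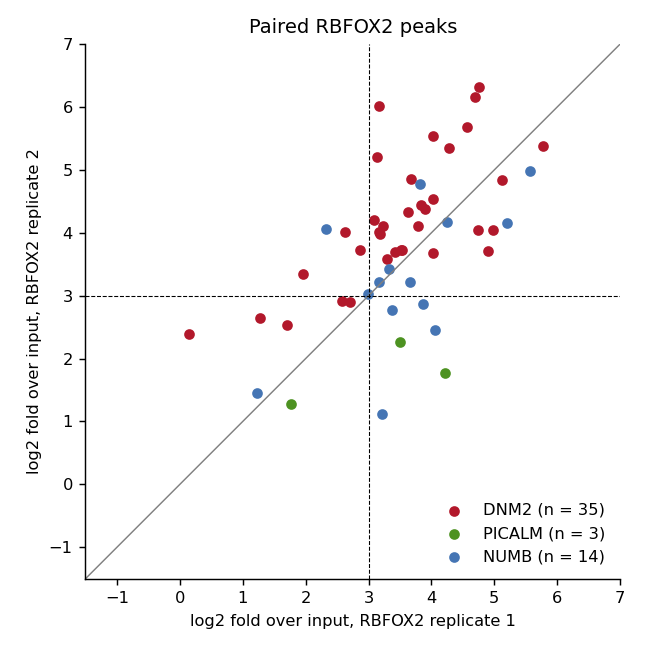
Log2 fold over input of paired RBFOX2 peaks in replicate 1 (x axis) and replicate 2 (y axis), coloured by gene; the solid line marks equal values and the dashed lines the fold limit of 3. Of the 35 DNM2 points 29 lie above the line, and all 3 PICALM points lie below it.

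Peak edges were repeated between the replicates in a part of the pairs. Of the 27 DNM2 pairs enriched in both libraries, 10 (37.0%) had both edges within 5 nt of each other, and 2 of 4 NUMB pairs did. Over the genome 24.9% of 3926 such pairs did. The genes were chosen with these lists known, so the contrast is a description only. Touching pieces were common in DNM2 and NUMB. In DNM2 18 of 41 peaks of replicate 1 and 32 of 49 of replicate 2 touched another peak, against 12.1% and 13.4% of the whole lists. In NUMB the numbers were 8 of 14 and 10 of 20, and in PICALM 0 in both libraries. Counted with touching peaks merged, enriched sites averaged 20 in DNM2 and 3 in NUMB.

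Agreement can also be counted from the enriched peaks of each library. Of the 28 in DNM2 replicate 1, 27 touched an enriched peak of replicate 2, and of the 41 in replicate 2, 31 touched one of replicate 1. In NUMB it was 5 of 8 for replicate 1 and 6 of 6 for replicate 2. In PICALM it was 0 of 2. Every enriched peak of PICALM and NUMB touched some peak of the other replicate, enriched or not. In DNM2 that held for 27 of 28 peaks in replicate 1 and 34 of 41 in replicate 2. Agreement in DNM2 is set in part by the choice of the gene, made for its regions enriched in both libraries.

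The amount of RNase I could be compared in the SLBP libraries, whose values did not enter the choice of genes. At 5 U the 3 genes together had 16 and 5 peaks in replicates 3 and 4, and at 40 U 14 and 8 in replicates 1 and 2. The means were 10.5 ± 7.78 at 5 U and 11 ± 4.24 at 40 U (SD, n = 2 each). They differed by less than the spread between replicates (difference −0.5, exact permutation p = 1, two-sided; the smallest p possible is 0.3333). Relative to list length the difference was 1.96 peaks per 10000, with 5 U higher, so no direction can be given.

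Peaks were assigned to the 3 genes by window, and other genes lie within them. The GRCh38.p14 gene table places 4 microRNA genes in DNM2, of which MIR638, MIR4748 and MIR6793 are on its strand and MIR199A1 is on the other, and 1 long noncoding RNA gene in each of DNM2 and PICALM. Peaks of DNM2 and of genes on its strand cannot be told apart by window. Exons, introns and the sequences under the peaks were not read, because neither a genome nor an annotation of build hg19 was used.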

How the data were processed

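Log2 folds over the paired input and −log10 p-values per peak were made by the authors and deposited as 1 list per library; both units were read from the values and the naming of the lists. Per the submitters' processing notes, tools included STAR, SAMtools, Picard, GATK and cutadapt, and coordinates are of hg19. No source used here names the peak caller. Genes, windows, limits and tests were chosen with earlier results of these data known. Named items were the 3 genes, every cluster with a reproducible region and its value in each library. Enriched peaks had a log2 fold of at least 3 and a −log10 p of at least 5; peaks were matched by 1 nt on 1 strand. Intervals were counted from 1 with Python 3.11.15, pandas 2.3.3, numpy 2.4.6 and scipy 1.17.1, and the interval code was tested on simulated data. The single test was an exact permutation test over SLBP libraries. Other endocytosis genes were not counted, since no hg19 annotation was used here. Alternatives covered the limits, merging of touching peaks, the joining distance, the window rule, peak width and leaving out libraries.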

Additional observations from a re-analysis of the deposited data

Results flagged for a closer look

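In NUMB, SLBP peaks came from 1 library. SLBP replicate 3 had 3 peaks there, or 1.77 per 10000 peaks of its list, and replicates 1, 2 and 4 had 0. Both values are the same 3 peaks, which had log2 folds of 0.66, 2.24 and 2.24 and −log10 p of at most 0.514. They are listed because the gap to the nearest library was compared with the range of the 4, over 10 such sets of values. With the other 3 libraries at 0, any count above 0 passes that comparison, so it says nothing about how unusual 3 peaks are.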

How the results depend on the processing

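Of 84 recomputed values, 3 reversed and 15 moved beyond the spread between replicates or, for counts, by over 1.5 times; the other 66 stayed within those bounds or, for the tested SLBP difference, kept its direction and its side of the threshold. With the stricter limits (log2 fold at least 4, −log10 p at least 10) DNM2 averaged 20.5 enriched RBFOX2 peaks, in 6 regions and 1 cluster, PICALM 0 and NUMB 2, in 1 region and 1 cluster. Merging touching peaks gave 20 in DNM2 and 3 in NUMB. Enriched RBFOX2 peaks without 1 replicate ranged from 28 to 41 in DNM2, 0 to 2 in PICALM and 6 to 8 in NUMB. Clusters of a single library ranged from 3 to 4 in DNM2, 0 to 1 in PICALM and 2 to 4 in NUMB. Joining within 5 kb left 2 in DNM2 and 1 in NUMB. Joining within 500 nt gave 4 in DNM2, and lowering the fold limit to a log2 of 2 gave 2 there. Median log2 folds without 1 replicate ranged from 3.42 to 4.11 in DNM2, 1.52 to 3.19 in PICALM and 2.95 to 3.51 in NUMB. By construction these medians could not move beyond the spread between replicates, so staying within it is no evidence of stability. With −log10 p of at least 3 IgG had 1 enriched peak, the one at 90.2 kb in DNM2. The SLBP difference of 5 U minus 40 U (−0.5 peaks) reversed to 1.96 per 10000 peaks of the list. It ranged from −6 to 5 without 1 replicate, reversing without replicate 1 (2.5) and without replicate 4 (5). Its exact permutation p could not fall below 0.3333, so it could not cross the threshold. Stricter limits can only lower counts of enriched peaks by construction. Merging lowers them where enriched peaks touch. A merged peak took the highest fold and the highest −log10 p of its pieces, so it could also newly pass. The causes of the other shifts were not tested. Depth is unknown, which limits every statement about low folds. No paired analysis was possible because the SLBP libraries at 5 U and 40 U share no replicate number and the other results come from no test.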
